A study of Mus musculus with 48 samples.

Results

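Tubulins are the paired alpha and beta subunits from which microtubules are built. The 10 tubulin genes examined here (the alpha-tubulin genes Tuba1a, Tuba1b, Tuba1c and Tuba4a and the beta-tubulin genes Tubb2a, Tubb2b, Tubb3, Tubb4b, Tubb5 and Tubb6) were 10 of the 47480 gene symbols in each count table. They were chosen on their measured difference between stretched and non-stretched cells at each time in both stages. Their stretch values are therefore given as a description. In the main edgeR comparisons, counts of these genes past an adjusted p limit or without overlap stand beside the share of all genes. Nothing is read from such counts. All 10 passed the filter on low counts in each of the 6 stretch comparisons, with between 2522 and 142941 counts in a library. Of the other alpha- and beta-tubulin genes looked up, Tuba3a, Tuba3b, Tuba8, Tubal3, Tubb1 and Tubb4a averaged at most 0.215 CPM in non-stretched cells of either stage. CPM is the counts-per-million value of a gene in a library, with library totals scaled by edgeR's TMM factors.

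The libraries came from C2C12 cells, an established line of mouse myoblasts, which exit the cell cycle and fuse into myotubes on differentiation. Myoblasts, and cells differentiated for 4 days, were grown on flexible collagen-coated plates and either stretched in cycles, equally in all directions of the plate, with a Flexcell system for 1, 3 or 6 h, or kept unstretched on such plates for as long. This gave 12 groups of 4 libraries, with non-stretched cells for each time and stage. The sample titles carry codes, taken here as experiments, though the labels do not say so. Myoblasts carried B27 and B31 and differentiated cells B25 and B28, each on 2 libraries of a group. The exception was 1 stretched differentiated library at 1 h (replicate 4), the only one with B17. For differentiated cells the methods describe 3 independent experiments giving 2, 1 and 1 samples. The codes match that only in the stretched group at 1 h. The labels give the molecule as nuclear RNA while the study's methods describe a column extraction of RNA and a stranded mRNA library kit, and which of these holds was not tested. The methods describe separate samples within each independent experiment, so p-values measure the spread between such samples of 1 cell line, part of which may be technical.

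Cells make soluble tubulin dimers through a chain of helpers. Prefoldin and the ring-shaped chaperonin (Tcp1 and the Cct subunits) fold the chains, and tubulin cofactors join alpha to beta. Tubulin messages are also controlled by their own product: when free dimers are in excess, TTC5 binds the amino-terminal end of the chain as it leaves the ribosome and recruits SCAPER and the CNOT11 subunit of the CCR4-NOT deadenylase, which shortens the life of the message. In muscle, microtubules are rearranged from a centrosomal array into arrays along the fiber and around the nuclei when myoblasts fuse, and Tubb6, a broadly expressed beta isotype, is known to be raised in regenerating and dystrophic muscle. Tubb3 is best known as a neuronal beta isotype, and Tubb5 and Tuba1b are abundant in dividing cells.

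The signal that this control reads is at the start of the coding sequence, so the first 8 codons of 9 of the genes are shown, 5′ to 3′, from GENCODE vM21 transcripts on mm10. Capitals mark the first 4 codons.
Tuba1a: ATGCGTGAGTGCatctccatccat
Tuba1b: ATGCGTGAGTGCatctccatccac
Tuba1c: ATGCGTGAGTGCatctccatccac
Tuba4a: ATGCGCGAGTGCatttcagtccat
Tubb2a: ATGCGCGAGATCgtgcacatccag
Tubb2b: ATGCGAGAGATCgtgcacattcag
Tubb3: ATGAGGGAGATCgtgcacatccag
Tubb4b: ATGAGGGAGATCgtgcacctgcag
Tubb5: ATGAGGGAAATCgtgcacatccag

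The alpha genes carried ATGCGTGAGTGC in 3 of 4 cases, with ATGCGCGAGTGC in Tuba4a. The beta genes shown had 4 versions of the capitals, of which ATGAGGGAGATC was shared by Tubb3 and Tubb4b.

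On mm10 the alpha genes Tuba1b (chr15:98931425-98934565, minus strand), Tuba1a (chr15:98949837-98953703, minus strand) and Tuba1c (chr15:99029891-99038110, plus strand) form a cluster, and Tuba4a is at chr1:75214228-75219865 on the minus strand. Of the beta genes, Tubb2a (chr13:34074274-34078007) and Tubb2b (chr13:34126748-34130466) are neighbors on the minus strand. Tubb3 lies at chr8:123411424-123422015 on the plus strand, Tubb4b at chr2:25222160-25224702 and Tubb5 at chr17:35833921-35838306, both on the minus strand, and Tubb6 is on chromosome 18. Closely related copies limit how well these genes can be told apart by the transcript quantification behind the counts. Of the 31-base stretches in its transcripts, Tuba1a shared 77% with other genes, Tuba1b 68.9%, Tuba1c 55.3%, Tubb2a 56.4%, Tubb2b 43.1% and Tubb4b 48.6%, the last mostly with the pseudogene Tubb4b-ps1. The division of reads within Tuba1a, Tuba1b and Tuba1c, within Tubb2a and Tubb2b, and between Tubb4b and its pseudogene is therefore uncertain. Tubb3 (3.21%), Tubb5 (3.47%), Tubb6 (3.24%) and Tuba4a (2.8%) shared little. Tubb3 also lies inside the annotated same-strand transcript unit Gm20388, whose counts ran from 0 to 2318 between libraries, and Tuba4a overlaps Stk16 and Tubb4b overlaps Fam166a on the opposite strand. Whether the counting used strand is not stated.

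The 48 libraries held between 48447318 and 77080730 counts. Muscle identity followed the labels: the summed level of 6 differentiation markers (Myog, Mef2c, Myh3, Tnnt1, Ckm and Acta1) was 6.75 to 15.9 CPM in the myoblast libraries and 9511 to 11751 CPM in the differentiated libraries. The sum of 4 myoblast markers (Myod1, Myf5, Pax7 and Des) was not higher in myoblasts. It was 886 to 1114 CPM in the myoblast libraries and 2984 to 3518.5 CPM in the differentiated libraries. Des had a mean of 821 CPM before and 3049 CPM after differentiation, while Myf5 averaged 47.1 and 22.6 CPM. Without Des and Myf5, the rest of the mean sum (Myod1 and Pax7) was also larger in differentiated cells. The summed level of 6 proliferation markers was 1743 to 2127 CPM in the myoblast libraries and 253 to 479.9 CPM in differentiated libraries other than replicate 4 at 1 h, which had 719.9 CPM. The 3 immune markers summed to 0.375 to 1.37 CPM, with Adgre1 at 0 counts in every library, the 4 adipocyte markers to 6.15 to 18.8 CPM, with Adipoq never above 2 counts, and the 3 endothelial markers summed to at most 0.792 CPM. In bulk samples, fewer cells of a type and less RNA per cell cannot be told apart.

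Differentiation was accompanied by a different mix of tubulin messages. This comparison used the 24 non-stretched libraries, a contrast on which the genes were not chosen, and all 10 genes passed an adjusted p of 0.05: 4 were higher and 6 lower in differentiated cells. When a change of 0.58 or more on the log2 scale was also required, 1 gene (Tubb6) rose and 5 (Tubb3, Tubb5, Tubb4b, Tuba1c and Tuba1b) fell, so 6 of 10 were called, against 50.5% of the 15439 genes tested. No tubulin gene's ranges overlapped between the stages, which held for 66.6% of all genes. The adjusted p limit alone was passed upward by 45.6% and downward by 45% of all genes tested, so a stage difference was common among all genes as well. Stage and experiment cannot be told apart, since no experiment held both stages, and the proliferation markers given above moved with the stage. Their part in the tubulin differences was not tested.

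Tubb3, the neuronal isotype, had the largest fall of the 10. In non-stretched myoblasts it had 186 CPM in the lowest library, a median of 213 and 244 in the highest of 12, and in non-stretched differentiated cells 40.2, 50.5 and 58.2 CPM. The ranges did not overlap, and the level was 4.32-fold lower in differentiated cells (log2 fold change -2.11 ± 0.04 SE, adjusted p = 1.67e-25, Benjamini-Hochberg adjustment over the quasi-likelihood tests of edgeR). Both experiments of a stage gave similar means, 219.9 CPM in B27 and 209 CPM in B31 against 53.5 CPM in B25 and 47.5 CPM in B28.

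Tubb6 showed the opposite pattern. Its levels were 211, 225 and 247 CPM (lowest, median and highest of 12) in non-stretched myoblasts and 563, 638 and 684 CPM in differentiated cells. It rose 2.73-fold (1.45 ± 0.03 on the log2 scale, edgeR adjusted p = 3.69e-26), again without overlap. The major beta gene of myoblasts, Tubb5, went from a median of 1922 CPM (1749.9 to 2008) to 692 CPM (583 to 778), which is -1.50 ± 0.03 on the log2 scale (edgeR adjusted p = 1.32e-24). Tubb4b fell by a similar amount (-1.44 ± 0.03).

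Among the alpha genes, Tuba1c fell by 1.29 and Tuba1b by 1.01 on the log2 scale, while Tuba1a differed little, from a median of 1891 to 1624 CPM (log2 fold change -0.24 ± 0.02). The change of Tuba1a was still larger than its spread, and no differentiated library reached the lowest myoblast library. Tuba4a (0.50 ± 0.03), Tubb2a (0.53 ± 0.02) and Tubb2b (0.29 ± 0.02) were higher in differentiated cells, also without overlap, at less than the 0.58 limit. The fold changes were computed within each gene, and for those that share sequence the split between neighbors is uncertain.

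Levels of different genes were compared per kilobase of the longest annotated transcript. On this scale the order in non-stretched myoblasts was Tuba1b (1069 ± 48.9 CPM per kb, SD, n = 12), Tuba1a (1039.5 ± 37.0), Tubb5 (723 ± 27.1), Tuba1c (413 ± 17.6), Tubb4b (318 ± 12.5), Tubb2b (192 ± 7.35), Tubb2a (180.4 ± 9.56), Tubb6 (129 ± 5.73), Tubb3 (115 ± 11.7) and Tuba4a (44.3 ± 2.41). Tuba1b and Tuba1a, Tubb2b and Tubb2a, and Tubb6 and Tubb3 were neighbors whose mean ± SD ranges overlapped. In non-stretched differentiated cells the order was Tuba1a (899.7 ± 34.3), Tuba1b (541 ± 22.6), Tubb6 (361 ± 18.1), Tubb2a (266 ± 7.07), Tubb5 (261 ± 20.4), Tubb2b (239 ± 5.40), Tuba1c (172 ± 10.5), Tubb4b (119 ± 8.71), Tuba4a (63.8 ± 2.31) and Tubb3 (27.05 ± 2.59). Here Tubb2a and Tubb5, and Tubb5 and Tubb2b, overlapped. Both orders depend on the length taken. With the mean transcript length of each gene, Tubb5 (1502 ± 56.3) was ahead of Tuba1a (1039.5 ± 37.0) in myoblasts. Tuba1b (1642 ± 75.1) and Tuba1a then did not overlap. In differentiated cells Tubb5 (543 ± 42.3) and Tubb2b (399.8 ± 9.02) were ahead of Tubb2a (266 ± 7.07) with that length.

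As a share of the 6 beta genes per kilobase, Tubb5 made up 43.6 ± 0.624% in myoblasts and 20.5 ± 1.05% in differentiated cells, and Tubb6 7.81 ± 0.113% and 28.3 ± 0.979%. Tubb6 thus became the leading beta message after differentiation on this scale, and Tubb3 went from 6.92 ± 0.561% to 2.12 ± 0.167%. Of the 4 alpha genes, Tuba1a supplied 40.5 ± 0.979% and then 53.7 ± 0.775%, and Tuba1b 41.7 ± 0.804% and then 32.3 ± 0.767%. The shares depend on the length taken: with the mean transcript length of each gene, Tubb5 was at 54.6 ± 0.621% and 28.9 ± 1.30%, Tubb6 at 6.19 ± 0.101% and 25.3 ± 0.98%, and Tubb5 remained ahead of Tubb6 in differentiated cells. The direction of each of these shifts was the same with either length.

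**Figure D1:**
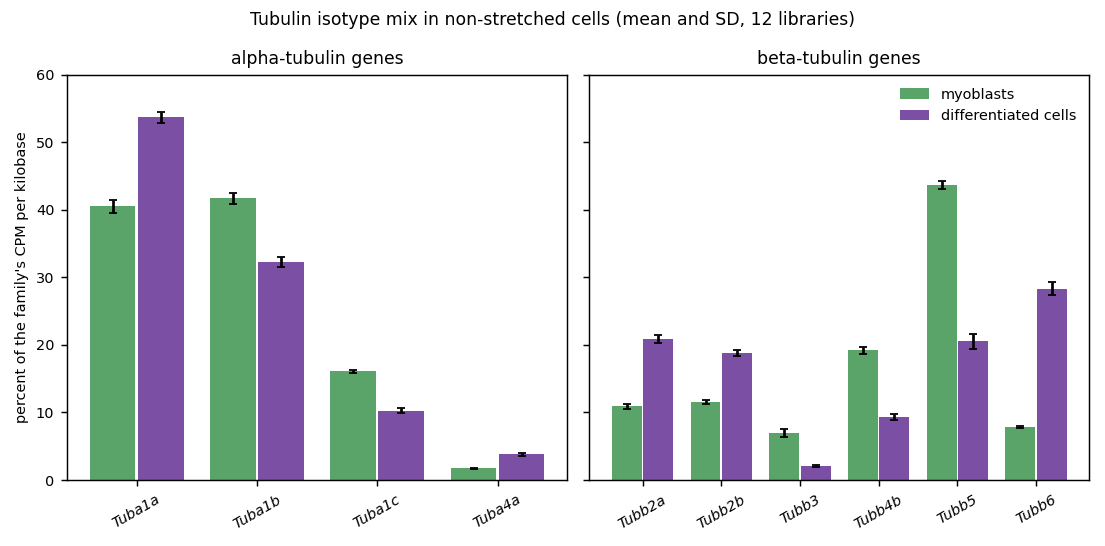
Share of each gene in the CPM per kilobase (longest transcript) of its family, in percent, for the alpha-tubulin genes (left) and beta-tubulin genes (right) in non-stretched myoblasts (green) and differentiated cells (purple). Bars are means and error bars SD of 12 libraries, and Tubb5 goes from 43.6% to 20.5% while Tubb6 goes from 7.81% to 28.3%.

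Stretched differentiated cells had higher tubulin levels after 3 h and 6 h, in contrasts on which the genes were chosen. At both of these times all 10 genes had a positive log2 fold change, from 0.09 up to 0.53 for the 3 h libraries and from 0.17 up to 0.82 for the 6 h libraries, with Tubb3 first. The median over the 10 genes was 0.25 at either time, while the median over all genes tested was within 0.01 of 0. Of all genes tested, 49.7% had a positive value at 3 h and 50% at 6 h. At 1 h the median was 0.06 in differentiated cells, with 8 of 10 positive (49.9% of all genes). This rested on single libraries: it was 0.04, with 7 of 10 positive, without stretched replicate 4 from B17, whose tubulin sum was the highest of its group (6579 against 5653 to 6039 CPM), and 0.11 without stretched replicate 7, 0.10 without stretched replicate 9 and 0.10 without non-stretched replicate 10. Myoblasts had medians of 0.01, 0.11 and 0.06 at the 3 times in order, and 5, 10 and 6 of 10 genes were positive. Among all genes tested in myoblasts, 51.1%, 48% and 50% were positive. Leaving out single libraries gave -0.01 to 0.03 at 1 h, with no steady sign, and 0.04 at 6 h without stretched replicate 8.

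Few of these differences were large. Called genes had to pass an adjusted p of 0.05 and to differ by 0.58 or more on the log2 scale. This held for 1 of 10 tubulin genes in differentiated cells at 6 h (Tubb3), against 2.04% of all 15433 genes tested. In the other comparisons 0 of 10 genes were called, where the share of all genes called was 1.25%, 1.71% and 2.17% in myoblasts (in order of time) and 0.27% and 1.63% in differentiated cells at 1 h and 3 h. DESeq2 also called 0 of 10 in these 5 comparisons and 1 of 10 in differentiated cells at 6 h. At an unadjusted p under 0.05 in edgeR, 2, 9 and 6 of 10 genes differed in myoblasts in order of time, and 0, 10 and 10 in differentiated cells. The share of all genes past this unadjusted limit is not given here, so these counts cannot be set against it. Past the adjusted p limit alone, 9 of 10 genes were higher in differentiated cells at 3 h (10.8% of all genes) and 9 of 10 at 6 h (11.5%), and 8 of 10 at 3 h (16%) and 3 of 10 at 6 h (14.1%) in myoblasts. All 4 stretched libraries lay above all 4 non-stretched libraries for 9 genes in differentiated cells at 3 h (12.5% of all genes) and 9 at 6 h (14.3%), for 9 in myoblasts at 3 h (17.1%) and for 1, Tubb3, at 6 h (12.4%). At 1 h 0 of 10 genes were so separated, upward (5.32% of all genes in myoblasts, 2.46% in differentiated cells) or downward (8.03% and 3.91%). The adjusted p limit alone was passed by 0 of 10 at 1 h. Of all genes, 1.67% rose and 4.24% fell past it in myoblasts, and 0.193% and 0.47% in differentiated cells. Since the genes were chosen with these comparisons known, nothing is read from these counts.

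**Figure D2:**
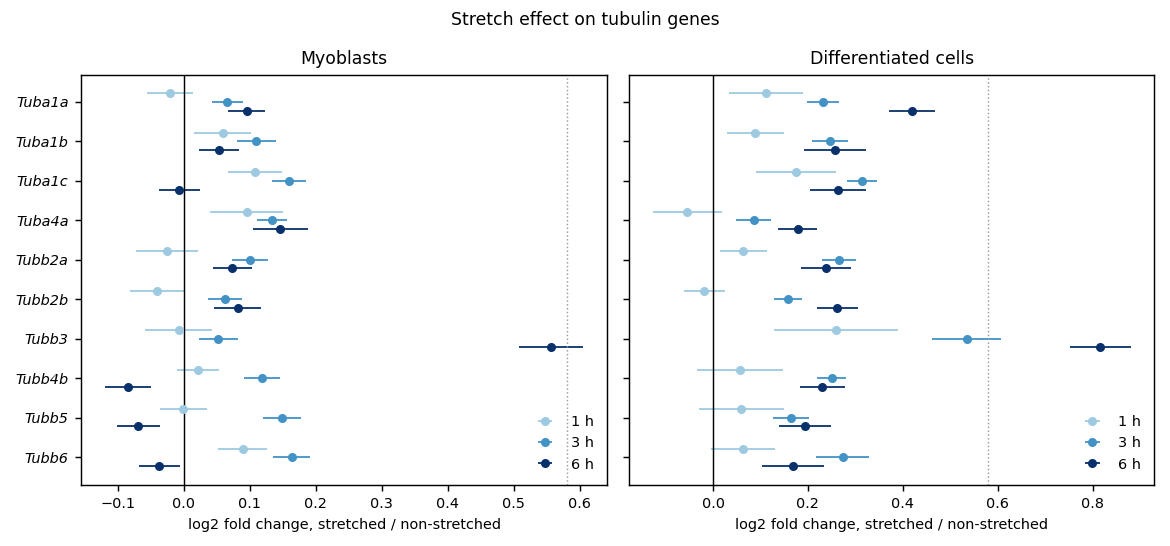
Log2 fold change of stretched over non-stretched cells for each tubulin gene in myoblasts (left) and differentiated cells (right) at 1 h, 3 h and 6 h (light to dark blue). Points are edgeR estimates from 4 libraries a group, bars are 1 SE and the dotted line is at 0.58. Tubb3 at 6 h lies at 0.56 in myoblasts and 0.82 in differentiated cells, apart from the other genes.

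Tubb3 had the largest stretch value of the 10 genes in differentiated cells at each time and in myoblasts at 6 h. In myoblasts at 6 h the non-stretched libraries had 187, 191, 186 and 193 CPM and the stretched libraries 279, 259, 302 and 260.2 CPM. The groups did not overlap, and the log2 fold change of 0.56 ± 0.05 (SE) lay just under the 0.58 limit. Each experiment gave a similar value, 0.52 in B27 and 0.59 in B31.

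At the earlier times in myoblasts Tubb3 was close to the non-stretched level. At 1 h the non-stretched libraries had 244, 244, 208 and 239 CPM and the stretched ones 238, 223, 239 and 231.3 CPM, and replicate 9 was the low one among the former. At 3 h the values were 232, 221, 212 and 215 CPM without and 227, 235, 235 and 221 CPM with stretching. The groups overlapped at both times. The non-stretched mean itself was 234 ± 17.6 CPM (SD, n = 4) at 1 h, 219.9 ± 8.73 CPM at 3 h and 189.6 ± 3.33 CPM at 6 h, and the stretched mean at 6 h was 275 ± 20.3 CPM.

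In differentiated cells at 6 h Tubb3 had 51.1, 50.8, 47.0 and 40.2 CPM without stretching and 86.6, 83.0, 82.6 and 80.9 CPM with it. All stretched libraries were higher, and the log2 fold change was 0.82 ± 0.06, a 76.0% higher level, with 0.74 in B25 and 0.90 in B28. With the 4 libraries of B28 alone, or with glmTreat, which tests against the fold limit, 0 tubulin genes were called. At 3 h the levels were 58.2, 58.2, 49.6 and 47.1 CPM and 80.2, 80.1, 69.3 and 78.4 CPM, also without overlap (0.53 ± 0.07).

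At 1 h in differentiated cells Tubb3 had 49.6, 53.3, 50.2 and 51.0 CPM in the non-stretched libraries. The stretched libraries had 82.2, 55.8, 56.9 and 49.5 CPM in replicates 4, 7, 8 and 9. Replicate 4, from the experiment with no other library, stood above all others, and the log2 fold change of 0.26 ± 0.13 became 0.08 without it. The same library had 719.9 CPM of the proliferation markers, against 339 to 479.9 CPM in the 4 non-stretched libraries of that time, and the part of this difference in the Tubb3 value was not tested.

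Of the alpha genes, Tuba1a had the largest stretch value in differentiated cells at 6 h, and Tuba1c at 3 h. At 6 h the levels of Tuba1a were 1553, 1618, 1678 and 1569 CPM without and 2223, 2263, 1999 and 2105 CPM with stretching, and at 3 h 1603, 1630.2, 1663 and 1707 CPM and 1940.3, 1931, 1913 and 1962 CPM. The groups did not overlap at either time, and the log2 fold change was 0.23 ± 0.03 at 3 h and 0.42 ± 0.05 at 6 h (0.50 in B25 and 0.33 in B28). In myoblasts the 6 h values overlapped, with 1794, 1804, 1796 and 1887 CPM against 1843, 1994, 1912 and 1934 CPM (0.10 ± 0.03).

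Tuba1c and Tuba1b shared the direction. Tuba1c had 332, 340.0, 352 and 355 CPM in non-stretched and 430.5, 432, 419.6 and 431 CPM in stretched differentiated cells at 3 h, without overlap (0.31 ± 0.03), and 0.26 ± 0.06 at 6 h. Tuba1b had log2 fold changes of 0.25 ± 0.04 and 0.26 ± 0.07 at these times. At 6 h both were higher by more in B25 than in B28: Tuba1b had 0.34 in B25 and 0.16 in B28, and Tuba1c 0.36 and 0.16. This was not particular to these genes. All the other tubulin genes except Tubb3 also had the larger 6 h value in B25, such as Tubb2a (0.32 and 0.15) and Tubb6 (0.24 and 0.08). Tuba4a, which shares little sequence with the others, had 179, 183, 182 and 198 CPM without and 217, 208, 202 and 212 CPM with stretching at 6 h (0.18 ± 0.04), and 0.09 ± 0.04 at 3 h, where the groups overlapped.

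Among the beta genes other than Tubb3, the values in differentiated cells ran from 0.16 (Tubb2b) up to 0.27 (Tubb6) at 3 h, and from 0.17 (Tubb6) up to 0.26 (Tubb2b) at 6 h. Tubb6, the leading beta message of these cells per kilobase of the longest transcript but not of the mean length, had 684, 644, 636 and 637 CPM without and 846, 833, 713 and 747 CPM with stretching at 3 h. Replicates 7 and 8, of experiment B25, were the higher of the stretched libraries. At 6 h its groups overlapped, with 619, 649.7, 666 and 563 CPM and 741, 762, 641 and 668 CPM (0.17 ± 0.07).

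Tubb4b, Tubb5 and Tubb6 had stretch values of opposite sign in the stages at 6 h. Tuba1c had no steady sign in myoblasts at 6 h, with 0.02 in B27 and -0.03 in B31. In myoblasts Tubb6 was at -0.04 ± 0.03 and Tuba1c at -0.01 ± 0.03. Their values in differentiated cells were 0.17 ± 0.07 and 0.26 ± 0.06. In differentiated cells Tubb4b had 177, 185, 179.6 and 168 CPM without and 218, 219, 191 and 206 CPM with stretching (0.23 ± 0.05). In myoblasts it had 512, 511, 521 and 522 CPM and 456, 514, 460.1 and 495 CPM (-0.08 ± 0.03), with overlap through stretched replicate 8. Tubb5 had 1921, 1889.9, 1924 and 1972 CPM and 1723, 1937, 1759 and 1839.7 CPM in myoblasts at 6 h (-0.07 ± 0.03), against 0.19 ± 0.06 in differentiated cells. The difference between the stages was not tested. The summed proliferation markers were 1986 to 2120.2 CPM in the non-stretched and 1743 to 1992 CPM in the stretched myoblasts at 6 h, and their part in these values was not tested.

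Myoblasts at 3 h had small positive values for all 10 genes, from 0.05 for Tubb3 to 0.16 for Tubb6. All 10 values were larger in B31 than in B27, such as 0.20 and 0.10 for Tubb5 and 0.17 and 0.05 for Tuba1b. Tubb5 had 1964, 1916, 1749.9 and 1867 CPM without and 2102, 2069, 2119 and 2086 CPM with stretching, with no overlap (0.15 ± 0.03). Tubb2a (0.10 ± 0.03) and Tubb2b (0.06 ± 0.03) also did not overlap between the groups. These values depended on the scaling: with total counts in place of TMM factors the median of the 10 genes was 0.07 instead of 0.11, and the median of all genes tested moved from -0.01 to -0.06.

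Added up, the 10 genes took 8195 ± 115 CPM (SD, n = 4) of non-stretched and 8301 ± 326 CPM of stretched myoblasts at 6 h, where the groups overlapped. At 3 h the myoblast sums were 8152 ± 337 and 8875 ± 75.9 CPM, 8.87% more with stretching. In differentiated cells the sums were 5701 ± 50.2 and 6686 ± 183 CPM at 3 h, 17.3% more, and 5451 ± 223 and 6682 ± 436 CPM at 6 h, 22.6% more. All stretched libraries were above all non-stretched ones in these 3 comparisons, and in differentiated cells at 6 h the alpha sum was 26.9% and the beta sum 17.2% higher. In that comparison the summed differentiation markers were lower with stretching, 10468 to 11102 CPM without and 9578 to 10431 CPM with it, without overlap, and their part in the tubulin values was not tested.

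**Figure D3:**
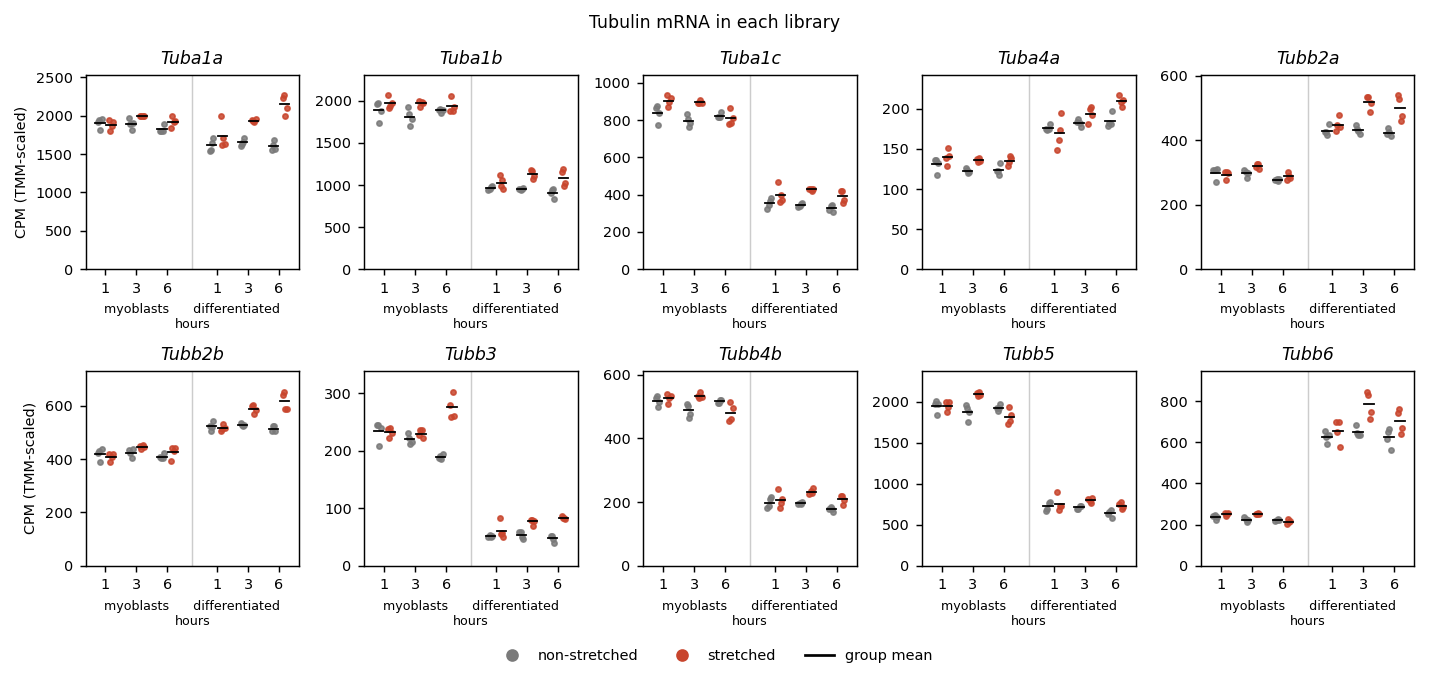
Level of each tubulin gene in each of the 48 libraries, in TMM-scaled CPM on axes that start at 0, by hours of stretching in myoblasts and differentiated cells. Gray points are non-stretched and red points stretched libraries, and black lines are means of 4. Tubb3 stands at 259 to 302 CPM in stretched myoblasts at 6 h, above 186 to 193 CPM without stretching.

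Over the 24 libraries of differentiated cells the log2 CPM of the 45 gene pairs had a median Pearson correlation of 0.74, from -0.13 to 0.93, with 44 positive. Over the 24 myoblast libraries the median was 0.58, from -0.27 to 0.92, with 42 positive. These are descriptions. The libraries pool stretched and non-stretched cells and the genes were chosen on that difference, which favors positive values, and they share depth, scaling and, for genes with common sequence, reads. Outside the tubulins and their partners, the genes whose log2 CPM was most like the centered mean of the 10 were, in myoblasts, Ddx54 (Pearson's r of 0.95 over 24 libraries), Lrrc59, Crip2, Snrpb and Arhgdia, out of 8998 genes with at least 10 CPM. In differentiated cells they were Poldip3 (0.96), Lsm12, Eif4h, Sf3b4 and U2af2, out of 9218.

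The partners of tubulin were taken as a list of 94 genes, in which 10 further tubulin genes, such as Tubd1 and Tubg1, were counted. Between 84 and 87 of the list could be tested in a stretch comparison. Past both limits, 2 of 85 fell in myoblasts at 3 h (1.71% of all genes were called) and 1 of 87 at 6 h (2.17%), and in differentiated cells 1 of 86 fell at 3 h (1.63%) and 0 of 84 changed at 6 h (2.04%), which is near the share of all genes. Past the adjusted p limit alone, 21 rose and 20 fell in myoblasts at 3 h (16% and 15.8% of all genes), 11 rose and 21 fell at 6 h (14.1% and 13%), 12 rose and 11 fell in differentiated cells at 3 h (10.8% and 11.4%) and 13 rose and 6 fell at 6 h (11.5% and 10.8%). At 1 h edgeR called 0 of 86 in either stage (1.25% of all genes in myoblasts and 0.27% in differentiated cells), as did DESeq2. In myoblasts at 1 h, 1 rose and 3 fell past the adjusted p limit alone (1.67% and 4.24% of all genes) and 17 had an unadjusted p under 0.05, and in differentiated cells these numbers were 0, 0 and 2 (0.193% and 0.47% of all genes rose and fell). In differentiated cells at 6 h, 32 of 84 had an unadjusted p under 0.05 and DESeq2 called 0. The unadjusted counts of partners also stand without the share of all genes, and nothing is read from them.

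Of the 3 factors of tubulin autoregulation, Ttc5 and Scaper were lower and Cnot11 higher in stretched cells where they passed the adjusted p limit. Ttc5, which encodes the ribosome-bound sensor, had 16.2, 16.3, 15.05 and 16.2 CPM without and 13.4, 14.0, 12.5 and 13.7 CPM with stretching in myoblasts at 3 h, without overlap. It fell at 3 h and 6 h in both stages, by 0.26 (edgeR adjusted p = 0.000773) and 0.17 (adjusted p = 0.0164) on the log2 scale in myoblasts and by 0.20 (adjusted p = 0.00692) and 0.18 (adjusted p = 0.0121) in differentiated cells. At 1 h it was at 0.04 ± 0.04 and -0.03 ± 0.05.

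Scaper, which links TTC5 to the deadenylase, had 13.5, 13.3, 13.1 and 13.7 CPM without and 11.1, 10.2, 9.41 and 11.1 CPM with stretching in myoblasts at 6 h and 17.2, 15.5, 15.9 and 17.3 and 12.8, 12.7, 14.3 and 13.3 CPM in differentiated cells. Neither pair of groups overlapped. In edgeR's quasi-likelihood test it fell by 0.34 (adjusted p = 0.00149) and 0.31 (adjusted p = 0.00371) at 6 h and by 0.21 in myoblasts at 3 h (adjusted p = 0.00747), while the value in differentiated cells at 3 h, -0.13 ± 0.05, did not pass (adjusted p = 0.0737). Cnot11, the deadenylase subunit, was higher at 3 h, by 0.13 ± 0.03 in myoblasts (edgeR adjusted p = 0.003) and 0.18 ± 0.03 in differentiated cells (edgeR adjusted p = 0.00296), and at 6 h at -0.01 ± 0.03 and 0.04 ± 0.03. None of the 3 reached the 0.58 limit in any of the stretch comparisons. Between stages, in non-stretched cells, Ttc5 (0.18 ± 0.02) and Scaper (0.28 ± 0.03) were higher in differentiated cells (edgeR adjusted p = 1.8e-09 and 1.12e-09), and Cnot11 was at 0.03 ± 0.02 (adjusted p = 0.15).

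**Figure D4:**
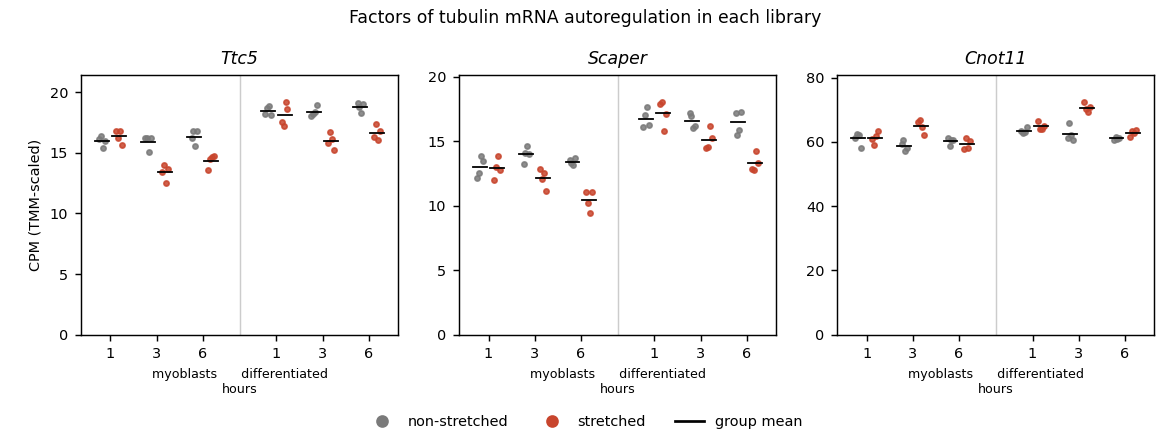
Level of Ttc5, Scaper and Cnot11 in each of the 48 libraries, in TMM-scaled CPM, drawn as for the tubulin genes (gray non-stretched, red stretched, black lines means of 4). Scaper is lower in stretched cells at 6 h in both stages, at means of 10.4 against 13.4 CPM for myoblasts and 13.3 against 16.5 CPM in differentiated cells.

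Chaperonin genes that passed the adjusted p limit under stretch rose, by small amounts. All 8 passed the adjusted p limit upward in myoblasts at 3 h (16% of all genes), 5 of 8 in differentiated cells at 3 h (10.8%) and 5 of 8 at 6 h (11.5%), and 0 of 8 in the other 3 comparisons, with edgeR's test. The median log2 fold change of the 8 was 0.10, 0.08 and 0.15 at the first 3 of these and 0.03 in myoblasts at 6 h. Cct6a, a subunit of the ring, had 241 ± 6.61 CPM without and 285 ± 10.2 CPM with stretching in differentiated cells at 6 h (log2 fold change 0.24 ± 0.04, edgeR adjusted p = 0.00186), and Cct3 had 0.23 ± 0.04 (edgeR adjusted p = 0.00316). Both were picked here after their values were seen. Of the 6 prefoldin subunits only Pfdn4 passed upward, in differentiated cells at 3 h, and Vbp1 passed downward in myoblasts at 6 h. Other partner lists also held genes past this limit and are not all given. Of 8 genes of the gamma-tubulin ring, 1 rose and 4 fell in myoblasts at 6 h (14.1% and 13% of all genes).

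Among calls past both limits, those averaging 100 counts or more were Stmn4 and Tubd1, both in myoblasts at 3 h. Stmn4, a neuronal member of the stathmins that bind free tubulin dimers, had 8.94, 8.88, 8.59 and 7.81 CPM without and 4.96, 5.61, 5.04 and 5.50 CPM with stretching, and fell by 0.71 (edgeR adjusted p = 1.03e-05). In myoblasts at 1 h it was also lower without overlap, though not called, at 7.92 to 8.47 CPM without and 5.54 to 6.34 CPM with stretching. Its groups overlapped at 6 h (6.96 to 8.06 and 7.10 to 7.40 CPM). Tubd1, the delta-tubulin of centrioles, had 6.22, 6.02, 6.49 and 6.34 CPM and 3.82, 4.05, 3.66 and 4.94 CPM and fell by 0.62 (edgeR adjusted p = 0.000211), which became -0.57 and no call without stretched replicate 9. At 6 h Tubd1 was higher with stretching, 6.52, 6.47, 6.61 and 6.13 against 7.58, 7.37, 8.09 and 7.39 CPM (0.26 ± 0.06, edgeR adjusted p = 0.00754). The remaining calls were Stmn4 in differentiated cells at 3 h, with a mean of 99.0 counts, and Map7 in myoblasts at 6 h, with 13.8, and both were lost on leaving out single libraries.

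Between stages, 43 of 85 partners tested were called in non-stretched cells, near the 50.5% of all genes. Of these 14 rose and 29 fell in differentiated cells (26.4% and 24.1% of all genes), with a median log2 fold change of -0.40 over the list and 0.01 over all genes. Mapt, which encodes the microtubule-binding protein tau, rose from 0.585 ± 0.11 to 15.1 ± 2.15 CPM (SD, n = 12, log2 fold change 4.65 ± 0.10, edgeR adjusted p = 4.87e-25), and Mid1, a ubiquitin ligase on microtubules, rose by 2.29 ± 0.02 (edgeR adjusted p = 2.81e-32). Fignl1, a relative of the severing protein fidgetin that acts in DNA repair, and Kif2c, the depolymerizing kinesin of mitosis, had the largest falls, -2.72 ± 0.05 and -2.52 ± 0.08 (edgeR adjusted p = 4.68e-26 and 2.12e-21). By list, 7 of 8 chaperonin genes, 5 of 8 genes of the gamma-tubulin ring and all 3 tested stathmins were called lower. Of 7 tubulin cofactors 2 rose and 0 fell, near the share of all genes that rose, and of 14 microtubule-associated proteins 6 rose and 4 fell. In the other lists, 1 of 6 prefoldin genes and 3 of 8 severing and depolymerizing genes fell and 0 rose. Of 14 modifying enzymes 3 rose and 2 fell, and of 10 plus-end and minus-end proteins 2 rose and 2 fell. Of 4 further tubulins 1 rose and 2 fell, and 0 of 3 autoregulation factors were called.

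Finally, the windows from 250 bases before to 50 bases after the start of each gene were searched in RefSeq promoters (GRCm38.p6), of which 8 of the 10 genes had an entry. The motif GGGCGG, in either orientation, was present in 7 of 8 windows (Tubb3 and all others but Tuba1c), and in 35.7% of the 32851 windows in the table. CCAAT was found in 5 of 8 (Tuba1a, Tuba1c, Tubb3, Tubb4b and Tubb5, 37.4% of all windows) and TATAAA in Tubb2a and Tubb4b (13.6%). TGACTCA was in none (5.2% of all windows) and TGACGTCA in Tubb2a alone (1.79%). These matches describe letters in a window and not sites of binding.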

How the data were processed

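Gene counts of 48 C2C12 libraries were read from the 2 count tables that the authors deposited, 1 for each stage, and these counts are raw and not normalized. For them the authors aligned reads to mm10 with STAR and quantified transcripts with Salmon. All columns were matched to samples by their titles, and 0 columns were left unused. The column of stretched myoblast replicate 9 at 1 h is named B31 where its title has B231, and it was taken as B31. Replicates were compared by a chi-square test, and in all 72 pairs within a group they differed beyond sampling noise (chi-square per degree of freedom of 2.74 to 188).

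The 10 tubulin genes, the partner lists and the markers were chosen with earlier results of these data known. Stretched and non-stretched libraries of a time and stage were compared with edgeR 4.0.16 (limma 3.58.1, R 4.3.3) by the quasi-likelihood test, after filterByExpr and TMM scaling, with Benjamini-Hochberg adjustment over all genes tested. The study used DESeq2, and DESeq2 1.42.0 was run here as an alternative. A gene was called when its adjusted p was under 0.05 and it differed by 0.58 or more, either way, on the log2 scale. The stage comparison joined both tables over the 24 non-stretched libraries with time as a covariate. CPM values use TMM-scaled library sizes over all 48 libraries. The fits were tested on simulated data with known changes.

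Named genes were the 10 tubulin genes, in each comparison the 2 largest rises and falls among called partners with a mean of at least 100 counts, the 3 autoregulation factors, and the 5 genes of at least 10 CPM most correlated with the mean of the 10 in each stage. Genes outside this rule are said to be picked after their values were seen. Alternatives were RLE scaling, DESeq2, no filter or at least 10 counts in every library, glmTreat, no fold limit, experiment as a covariate (which drops replicate 4, alone in B17), each experiment alone, all 24 libraries of a stage, a replicate block (which drops replicates 4 and 10 in differentiated cells at 1 h) and leaving out each replicate. With 48447318 to 77080730 counts a library and at least 2522 counts of each tubulin gene, the spread between replicates outweighed counting error. For genes that share sequence, the uncertain division of reads adds to this and was not measured.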

Additional observations from a re-analysis of the deposited data

Results flagged for a closer look

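Of 120 groups of 4 libraries (10 genes in 12 groups), 9 held a library far from the other 3 by Dixon's ratio, where chance flags about 1 in 20 groups. In non-stretched myoblasts at 6 h, replicate 10 was apart for Tuba1a (1887 CPM) and Tuba1c (841 CPM). In stretched myoblasts at 3 h, replicate 9 was apart for Tuba1c (907 CPM). In stretched differentiated cells at 3 h, replicate 9 was the low library for Tuba1c (419.6 CPM) and Tubb3 (69.3 CPM). In myoblasts at 1 h, replicate 9 without stretching was apart for Tubb2a (269 CPM) and Tubb3 (208 CPM), and replicate 8 with stretching for Tubb2a (275 CPM). In non-stretched differentiated cells at 3 h, replicate 7 was the high library for Tubb6 (684 CPM).

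For 4 contrasts, every stretched library lay on one side of the non-stretched mean in one setting and on the other side in another, and the difference was not tested. The log2 fold change of Tubb4b was 0.31 higher in differentiated cells than in myoblasts at 6 h, and in myoblasts it was -0.2 from 3 h to 6 h. That of Tubd1, the delta-tubulin, was 0.88 higher at 6 h than at 3 h in myoblasts and 0.39 higher in differentiated cells.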

How the results depend on the processing

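Of 1070 recomputed stretch values of single tubulin genes, 1036 moved by less than the spread between replicates. A change of sign was counted only for called values. Only 1 was called (Tubb3 in differentiated cells at 6 h), and it kept its sign. Small uncalled values did change sign. Tuba4a in differentiated cells at 1 h went from -0.054 to 0.014 with the replicate block. Tubb5 there went from 0.059 to -0.010 with experiment as a covariate. Tuba1c in myoblasts at 6 h ranged from -0.035 to 0.008 on leaving out replicates. Of 158 recomputed counts of tubulin calls 146 stayed within 1.5 times. Without the fold limit, 8, 3, 9 and 9 tubulin genes passed in myoblasts at 3 h and 6 h and differentiated cells at 3 h and 6 h, and 10 between stages. Of the partners 4, 41 and 32 passed in myoblasts at 1 h, 3 h and 6 h, 23 and 19 in differentiated cells at 3 h and 6 h, and 80 between stages. Of all genes tested, 16% and 14.1% passed upward in myoblasts at 3 h and 6 h, and 15.8% and 13% downward. In differentiated cells at these times 10.8% and 11.5% passed upward, and 11.4% and 10.8% downward. The upward and downward shares were 1.67% and 4.24% in myoblasts at 1 h, and 45.6% and 45% between stages. Nothing is read from these counts. With glmTreat, which tests against the fold limit, 0 tubulin genes were called in differentiated cells at 6 h and 0 partners in myoblasts at 3 h and 6 h and differentiated cells at 3 h. The single partner call in myoblasts at 6 h (Map7) became 0 with DESeq2, with no filter, with at least 10 counts in every library, and in B27 or B31 alone. In 1 experiment alone, with 4 libraries, 1 tubulin gene was called in myoblasts at 6 h (B31), 1 in differentiated cells at 3 h (B28) and 0 at 6 h (B28), and 0 partners in differentiated cells at 3 h (B28) and 1 at 6 h (B25). With total counts, an alternative chosen after seeing the data, 1 partner was called in differentiated cells at 6 h. Leaving out each replicate gave between 0 and 1 tubulin calls in myoblasts at 6 h (1 without stretched replicate 8 or 10) and in differentiated cells at 3 h (1 without stretched replicate 9), between 1 and 2 partner calls in myoblasts at 3 h (Tubd1 was at -0.57 without stretched replicate 9), and between 0 and 1 in myoblasts at 6 h, where only leaving out stretched replicate 10 kept the call, and in differentiated cells at 3 h (0 on omitting replicate 7 or 8 of the non-stretched or 7, 9 or 10 of the stretched group) and at 6 h (1 on omitting replicate 7 or 9 of the non-stretched or 8, 9 or 10 of the stretched group). Values near 0 changed sign. That of Scaper, myoblasts, 1 h, ranged from -0.045 to 0.023 on leaving out replicates (0.0063 and 0.020 among them) and was 0.024 in B27 alone. That of Cnot11, myoblasts, 1 h, ranged from -0.021 to 0.014 (-0.0017 and -0.015 among them) and was -0.034 with total counts, -0.00399 with no filter, -0.000812 with all 24 libraries and -0.043 in B27 alone. That of Cnot11, myoblasts, 6 h, ranged from -0.017 to 0.0033 (0.0014 and 0.0023 among them) and was 0.00044 in B27 alone, that of Ttc5, differentiated cells, 1 h, ranged from -0.053 to 0.00083, and that of Cnot11, non-stretched differentiated cells against myoblasts, was -0.011 at 6 h alone. Tubb2a between stages reached 0.58 at 6 h alone. Of the 5 genes most like the tubulins, Spearman's rho kept 2 in myoblasts and 1 in differentiated cells. The cause of these changes was not tested.

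Replicate numbers did not pair the libraries: 6 of 23 same-numbered pairs had a correlation of deviations over 0.1 (range -0.044 to 0.15), and in 0 of 6 comparisons did all. The fit with a replicate block called 0, 0 and 0 tubulin genes in myoblasts at 1 h, 3 h and 6 h, 0, 0 and 1 in differentiated cells and 6 between stages, with 43 partners between stages, and the value of Scaper, differentiated cells, 1 h, became -0.0013. It changed no other count of calls.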

Other observations

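Other partners, picked here after their values were seen, also differed under stretch, with adjusted p-values from edgeR's quasi-likelihood test. Agbl5, a carboxypeptidase that removes glutamates from tubulin tails, was lower in stretched than non-stretched differentiated cells after 6 h, going from 6.71 ± 0.551 to 4.51 ± 0.266 CPM (SD, n = 4, log2 fold change -0.58 ± 0.08, edgeR adjusted p = 0.00139), and it fell at 3 h by 0.28 (edgeR adjusted p = 0.0379) and in myoblasts at 6 h by 0.32 (edgeR adjusted p = 0.0063). In myoblasts at 6 h Hdac6, the main tubulin deacetylase, fell by 0.36 (edgeR adjusted p = 0.000519), and Vash2, a tubulin tyrosine carboxypeptidase, rose by 0.31 (edgeR adjusted p = 0.00152). Clip2, a plus-end protein, was lower with stretching in differentiated cells after 3 h, going from 41.8 ± 0.826 to 31.3 ± 1.72 CPM (-0.42 ± 0.04, edgeR adjusted p = 0.00017), and Clip1 rose in myoblasts at 3 h by 0.29 (edgeR adjusted p = 7.85e-06). In each of these the stretched and non-stretched libraries did not overlap. None was called, Agbl5 at 6 h falling just short of the 0.58 limit before rounding.

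Between stages in non-stretched cells, the tubulin acetyltransferase gene Atat1 rose by 1.91 ± 0.03 and Svbp, the partner of the vasohibins, by 1.73 ± 0.03 on the log2 scale, while Stmn2 fell by 2.51 and Stmn1 by 1.71 (edgeR adjusted p = 1.21e-28, 1.03e-26, 8.11e-28 and 4.73e-23). Tubg1, which encodes the nucleating gamma-tubulin, had 70.7 to 80.4 CPM in non-stretched myoblasts and 36.5 to 41.2 CPM in differentiated cells, without overlap over 12 libraries each.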
